A study of Mus musculus with 2 samples.

Results

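The genes described here are 9 genes best known from the liver: the plasma carrier genes Alb, Afp and Ttr, the bile acid gene Cyp7a1, and the apolipoprotein genes Apob, Apoa1, Apoc3, Apoa4 and Apoa5. They were taken by name from the 21938 protein-coding genes of GENCODE M21 on chromosomes 1 to 19, X and Y, as genes of another tissue than the one studied. Every CTCF summit within 100 kb of 1 of their gene records was collected, which gave 32 of the 44533 summits of the list used. Because Alb lies beside Afp, and Apoa1, Apoc3, Apoa4 and Apoa5 form 1 cluster, the 9 genes make up 5 loci.

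The study precipitated chromatin of heart tissue with an antibody to CTCF and sequenced the DNA (ChIP-seq), in B6NCrl mice at postnatal day 0 for which the labels name no further allele or treatment. The 2 libraries, replicate 1 and replicate 2, form 1 group, so no conditions were compared and no p-value is given. The labels name a single tissue sample and a single donor for both, and record that sex was not collected, so the spread between the libraries may be technical. Each peak carries a signal value given by the authors, which is used here to describe and rank peaks within a list, and read depth is unknown because the peak lists do not hold it.

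CTCF is a zinc finger protein that binds an asymmetric DNA motif. Together with the ring-shaped cohesin complex it holds the bases of chromatin loops, most often where a pair of motifs point towards each other, and it can keep an enhancer from acting on a promoter beyond it. Many of its sites are occupied in many tissues, and sites of CTCF and cohesin have been described in the human APOA1, APOC3, APOA4 and APOA5 cluster. Liver genes themselves are driven by factors such as HNF4A and the FOXA proteins. A CTCF peak does not measure transcription, so these values neither show whether a gene was active in the heart nor allow the labelled tissue to be checked against its marker transcripts.

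CTCF summits lay inside the records of 3 of the 9 genes, with 1 summit in Afp, 1 in Apoa1 and 2 in Apob. The share over all protein-coding genes was 46.0%. Within 10 kb of the gene record, 6 of the 9 genes had a summit, and Alb, Ttr and Cyp7a1 had none, beside 69.7% of all protein-coding genes. Within 10 kb of the 5′ end the count was 5 of 9, beside 50.3%, and the summit in Afp missed that window at 10190 bp. Each of these 3 counts is close to or below its background, and 4 of the 6 genes with a nearby summit belong to the apolipoprotein cluster, where Apoa1 and Apoc3 share 1 summit. Gene records ran from 1.89 kb for Apoa1 to 39.19 kb for Apob, and no correction for gene length was made.

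The neighbourhoods differed in density. Apoa5 had 13 summits within 100 kb, and Apoa1, Apoc3 and Apoa4 had 12 each. Ttr had 5, and Alb, Afp, Cyp7a1 and Apob had 4 each. The median over all protein-coding genes was 7, with quartiles of 4 and 11, so the apolipoprotein cluster lay above the upper quartile and the other genes below the median.

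Alb encodes albumin, the main protein of blood plasma, and Afp encodes alpha-fetoprotein, its fetal relative, which is made in yolk sac and fetal liver. In mm10, the genome build of the files, Alb (ENSMUSG00000029368.10) occupies chr5:90460897-90476602 and Afp (ENSMUSG00000054932.6) chr5:90490737-90508907, both on the plus strand. The pair was flanked by a summit between genes 55.5 kb upstream of Alb and by a summit 80.23 kb beyond the 3′ end of Afp, and a summit in intron 7 of Afp, a gene of 15 exons, parted the interval between them. Of the 6 summits near the pair, 5 had a CTCF core, defined as the CTCF core consensus of 14 bases with at most 2 mismatches within 50 bp of the summit on either strand. The windows at these 3 summits are printed 5′ to 3′ from the GRCm38 (mm10) RefSeq genome on the strand of the core, because they bound the albumin gene and the fetal gene. Capitals mark the core, and the Afp window is 101 bases long while the flanks show the core with 10 bases on each side.
Upstream of Alb, chr5:90405381-90405414, plus strand, 2 mismatches: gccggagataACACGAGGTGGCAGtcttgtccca
Intron 7 of Afp, chr5:90500877-90500977, minus strand, 1 mismatch: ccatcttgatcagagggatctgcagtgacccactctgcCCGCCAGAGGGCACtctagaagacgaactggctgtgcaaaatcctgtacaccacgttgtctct
Downstream of Afp, chr5:90589117-90589150, minus strand, 2 mismatches: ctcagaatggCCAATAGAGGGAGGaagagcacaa

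The Afp intron summit, at position 90500927, was the strongest near the pair. It had a pooled signal of 189 and signals of 89.5 in replicate 1 and 96.2 in replicate 2, a mean of 92.8 ± 4.75 (SD, n = 2). Its pooled signal was above that of 91.2% of the list, and replicate 2 was the higher library here, which was the case at few summits near the 9 genes. The summit lay 10.19 kb downstream of the Afp 5′ end and 24.32 kb beyond the 3′ end of Alb, and GENCODE M21 also places the gene record Gm43449 there.

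The upstream flank, at position 90405396, had signals of 59.1 and 53.5 in replicates 1 and 2, a mean of 56.3 ± 3.94 (SD, n = 2), and a pooled signal of 115. The downstream flank, at position 90589136, had signals of 105 and 82.7, a mean of 93.8 ± 15.7 (SD, n = 2), and a pooled signal of 185. It lay in an intron of 5830473C10Rik and 59 bp from the 5′ end of Gm42109. Both flanks were therefore present in each library, and the difference between the means of the Afp summit and the downstream flank was smaller than either SD.

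From the upstream flank to the Afp summit, 95.53 kb held no other summit, and this interval contained the whole of Alb and the 5′ end of Afp. A further 88.21 kb separated the Afp summit from the downstream flank, and it held the 3′ part of Afp and all of Afm, which encodes afamin, a vitamin E binding member of the albumin family. The core upstream of Alb lay on the plus strand and the core in Afp on the minus strand, so those cores pointed towards each other across the albumin gene. The other 3 summits lay outward of the flanks: in an exon of Ankrd17 (pooled signal 94.2, no core), between genes 77.57 kb upstream of Alb (15.1), and between genes 92.76 kb beyond Afp (93.4). The weak one, at position 90383331, was not in the conservative list and gave 4.19 in replicate 1 against 9.81 in replicate 2.

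The apolipoprotein cluster spans 43.34 kb of chromosome 9. Apoa1 (ENSMUSG00000032083.8, chr9:46228580-46230466, plus strand) encodes the structural protein of high-density lipoprotein. Apoc3 (ENSMUSG00000032081.10, chr9:46232933-46235636, minus strand) encodes an inhibitor of lipoprotein lipase, Apoa4 (ENSMUSG00000032080.6, chr9:46240696-46243459, plus strand) a lipid carrier made in gut and liver, and Apoa5 (ENSMUSG00000032079.12, chr9:46268633-46271919, plus strand) a protein that promotes the breakdown of triglycerides by lipoprotein lipase. Of the 13 summits within 100 kb, 2 lay inside the cluster, 4 to its left and 7 to its right, and each of the 13 was also in the conservative list. The inner summits are printed as 101-base windows, because they lie inside the cluster. The left flank and the strongest summit of the region are printed as cores with 10 bases on each side. That strongest summit was taken for its signal and is not the right flank, which had no core and is not printed. Capitals mark the core, or, for the Apoa4 to Apoa5 window, the best match, which has 3 mismatches and so is not counted as a core.
Left flank in Sik3, chr9:46191855-46191888, minus strand, 1 mismatch: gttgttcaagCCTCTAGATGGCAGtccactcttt
Exon 4 of Apoa1, chr9:46229991-46230091, plus strand, 1 mismatch: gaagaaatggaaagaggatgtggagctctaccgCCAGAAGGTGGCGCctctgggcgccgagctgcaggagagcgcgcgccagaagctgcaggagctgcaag
Between Apoa4 and Apoa5, chr9:46246934-46247034, minus strand, 3 mismatches: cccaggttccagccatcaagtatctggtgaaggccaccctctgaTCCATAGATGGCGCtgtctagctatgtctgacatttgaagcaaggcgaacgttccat
Strongest right of the cluster, chr9:46314656-46314689, minus strand, 1 mismatch: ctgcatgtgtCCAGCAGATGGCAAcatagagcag

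The summit in Apoa1, at position 46230041, lay in coding sequence of exon 4, the last of the gene, 1.46 kb from its 5′ end. It gave 86.9 in replicate 1 and 75.6 in replicate 2, a mean of 81.2 ± 7.96 (SD, n = 2), with a pooled signal of 162. Its window was rich in G and C (63.4%) and held 7 CpG dinucleotides, against list medians of 52.5% and 1. The same summit was the nearest to Apoc3, 2.89 kb beyond that gene's 3′ end.

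The summit between Apoa4 and Apoa5, at position 46246984, was the stronger of the pair inside the cluster. It gave 105 in replicate 1 and 91.5 in replicate 2, a mean of 98.0 ± 9.28 (SD, n = 2), and its pooled signal of 196 was above that of 92.4% of the list. It lay 3.52 kb beyond the 3′ end of Apoa4. The windows of both inner summits were free of masked repeats in their best match, and both summits were higher in replicate 1.

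To the left, 36.72 kb upstream of Apoa1, the nearest summit lay in an intron of Sik3, which encodes a salt-inducible kinase. It gave 55.0 and 42.4 in replicates 1 and 2, a mean of 48.7 ± 8.90 (SD, n = 2), with a pooled signal of 97.8. The other 3 summits on this side also lay in introns of Sik3, within 43.17 kb of Apoa1, with pooled signals of 89.4, 34.3 and 17.4. Between this group and the Apoa1 exon, 38.18 kb held no summit.

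To the right, the nearest summit lay 1.13 kb beyond the 3′ end of Apoa5 and 15 bp upstream of the 5′ end of Zpr1, which encodes a zinc finger protein. It was weak and had no core: 8.40 in replicate 1 and 12.9 in replicate 2, a mean of 10.7 ± 3.17 (SD, n = 2), with a pooled signal of 21.1, higher than 15.9% of the list. The next lay 304 bp upstream of the 5′ end of Bud13, which encodes a splicing factor, with signals of 36.7 and 30.7 and again no core. The interval from the inner Apoa4 to Apoa5 summit to the Zpr1 summit was 26.07 kb and held Apoa5, and the interval between the inner summits was 16.94 kb and held Apoc3 and Apoa4.

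Stronger summits began farther right. One between genes 30.37 kb beyond Apoa5 gave 101 and 86.9, with a pooled signal of 188 and a plus strand core. The strongest of all 32 lay 42.76 kb beyond Apoa5, in an intron of 4931429L15Rik, and gave 108 in each library, a mean of 108.3 ± 0.245 (SD, n = 2). Its pooled signal of 220 was above that of 95.9% of the list. The remaining 3 on this side had pooled signals of 50.7, 19.1 and 178. From the left flank to the right flank, the cluster and its inner summits lay within 81.19 kb.

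**Figure D1:**
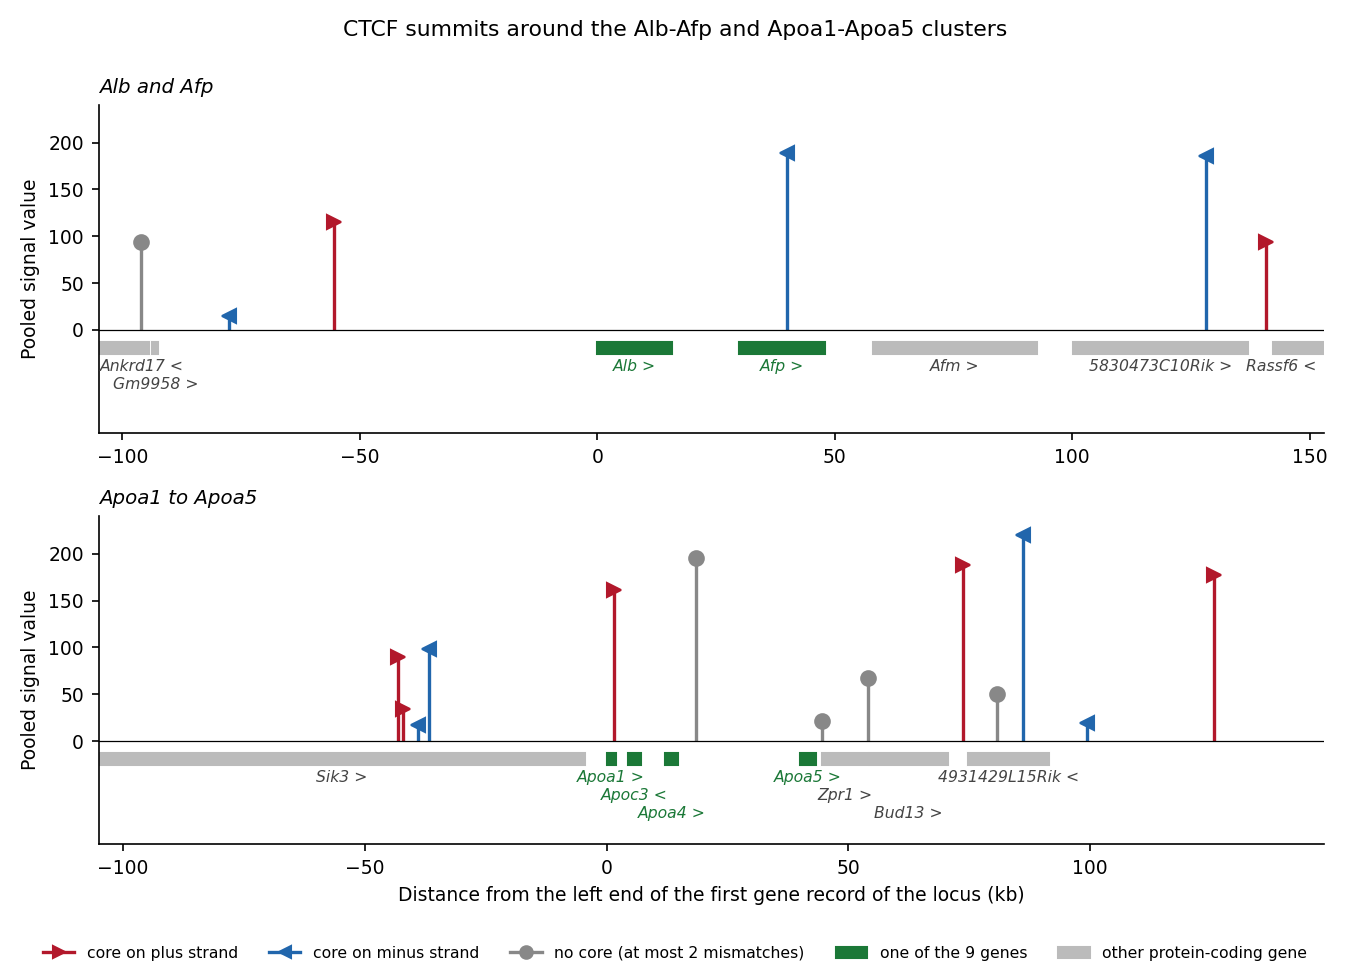
Pooled signal value (vertical axis) of each CTCF summit against its distance in kb from the left end of the Alb record (top) or the Apoa1 record (bottom), with triangles pointing along the strand of the core, grey circles for summits without one, and gene records as bars below. The tallest summit near Alb and Afp is the Afp intron summit at 189, and the tallest near the apolipoprotein cluster is the one at 220 to its right.

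Apob encodes the structural protein of chylomicrons and of very-low-density and low-density lipoproteins. Its record (ENSMUSG00000020609.14, chr12:7977648-8016835, plus strand) held 2 summits, in introns 2 and 14 of a gene of 29 exons. Both windows are printed as 101 bases on the strand of the core, with the core in capitals, together with the cores of the flanking summits, because their order sets the orientation pattern of this locus.
Upstream of Apob, chr12:7905509-7905542, plus strand, 1 mismatch: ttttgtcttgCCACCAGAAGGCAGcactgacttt
Intron 2 of Apob, chr12:7978685-7978785, minus strand, 2 mismatches: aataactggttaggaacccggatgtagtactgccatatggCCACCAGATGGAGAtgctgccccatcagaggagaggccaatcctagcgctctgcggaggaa
Intron 14 of Apob, chr12:7990953-7991053, plus strand, 2 mismatches: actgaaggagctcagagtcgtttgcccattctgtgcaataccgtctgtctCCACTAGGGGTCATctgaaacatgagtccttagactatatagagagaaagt
Downstream of Apob, chr12:8059756-8059789, plus strand, 0 mismatches: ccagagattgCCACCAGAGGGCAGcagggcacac

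The intron 2 summit lay 1.09 kb from the Apob 5′ end, the shortest such distance among the 9 genes. It gave 102 in replicate 1 and 103 in replicate 2, a mean of 102.5 ± 0.752 (SD, n = 2), with a pooled signal of 208. The intron 14 summit gave 77.8 and 59.6, a mean of 68.7 ± 12.9 (SD, n = 2), with a pooled signal of 139. The intron 2 summit was thus the higher in each library. The core printed for intron 14 ran past the end of its peak, and the best match wholly within that peak had 6 mismatches.

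Outside the gene, the downstream flank lay 42.94 kb beyond the 3′ end, in the gene record Gm33037. It gave 108 and 81.7, a mean of 94.9 ± 18.6 (SD, n = 2), with a pooled signal of 189, and its core matched the consensus without a mismatch and lay wholly in masked repeat sequence. The upstream flank lay 72.11 kb from the gene and was weak, with signals of 12.6 and 14.0, a mean of 13.3 ± 0.956 (SD, n = 2), and a pooled signal of 27.6, although its core had 1 mismatch. The interval between the upstream flank and the intron 2 summit, which holds the Apob 5′ end, was 73.2 kb.

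Cyp7a1 encodes cholesterol 7-alpha-hydroxylase, the rate-limiting enzyme of bile acid synthesis. Its record (ENSMUSG00000028240.2, chr4:6265612-6275633, minus strand) held no summit, and the nearest lay 17.56 kb upstream of its 5′ end. The 4 summits within 100 kb all lay between genes and all had a core. The cores nearest to the gene on each side are printed with 10 bases on each side, because they face each other across it.
Downstream of Cyp7a1, chr4:6225465-6225498, plus strand, 1 mismatch: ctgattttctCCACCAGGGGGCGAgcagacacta
Upstream of Cyp7a1, chr4:6293170-6293203, minus strand, 1 mismatch: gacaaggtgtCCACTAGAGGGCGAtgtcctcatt

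The downstream flank of Cyp7a1, 40.14 kb beyond the 3′ end, gave 107 in replicate 1 and 98.4 in replicate 2, a mean of 102.9 ± 6.41 (SD, n = 2), with a pooled signal of 205. The upstream flank gave 44.7 and 42.0, a mean of 43.3 ± 1.97 (SD, n = 2), with a pooled signal of 88.4. The downstream flank was the higher in each library. A second upstream summit, 26.77 kb from the gene, gave 76.7 and 48.2, a mean of 62.5 ± 20.2 (SD, n = 2), the largest SD among the 31 summits matched in both libraries. The last, 93.35 kb beyond the 3′ end, had a pooled signal of 71.8. The interval around Cyp7a1 was 67.72 kb.

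Ttr encodes transthyretin, the carrier of thyroxine and of the retinol-binding protein. Its record (ENSMUSG00000061808.4, chr18:20665280-20674321, plus strand) held no summit. The nearest summit lay 25.16 kb upstream, in an intron of Gm16090, and was the strongest of the 5 within 100 kb. It gave 97.5 in replicate 1 and 86.4 in replicate 2, a mean of 91.9 ± 7.88 (SD, n = 2), with a pooled signal of 188 and a plus strand core with 1 mismatch. On the other side the nearest summit lay 72.03 kb beyond the 3′ end and 57 bp from the 5′ end of B4galt6, which encodes a galactosyltransferase of glycolipid synthesis. It gave 55.2 and 48.5, a mean of 51.8 ± 4.78 (SD, n = 2), in a window with 10 CpG dinucleotides and no core.

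The interval around Ttr, 106.22 kb, was the longest among the 9 genes. The 3 remaining summits lay in the record of Dsg2, which encodes a desmosomal cadherin of heart muscle, and Dsg2 is the closest protein-coding gene on that side. The one 98.33 kb upstream of Ttr gave 73.1 and 70.6 and had a core without a mismatch. The one 66.95 kb upstream gave 20.3 and 13.2. The one 65.36 kb upstream had a pooled signal of 14.4 and 9.69 in replicate 1, no matching peak in replicate 2 and no place in the conservative list.

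**Figure D2:**
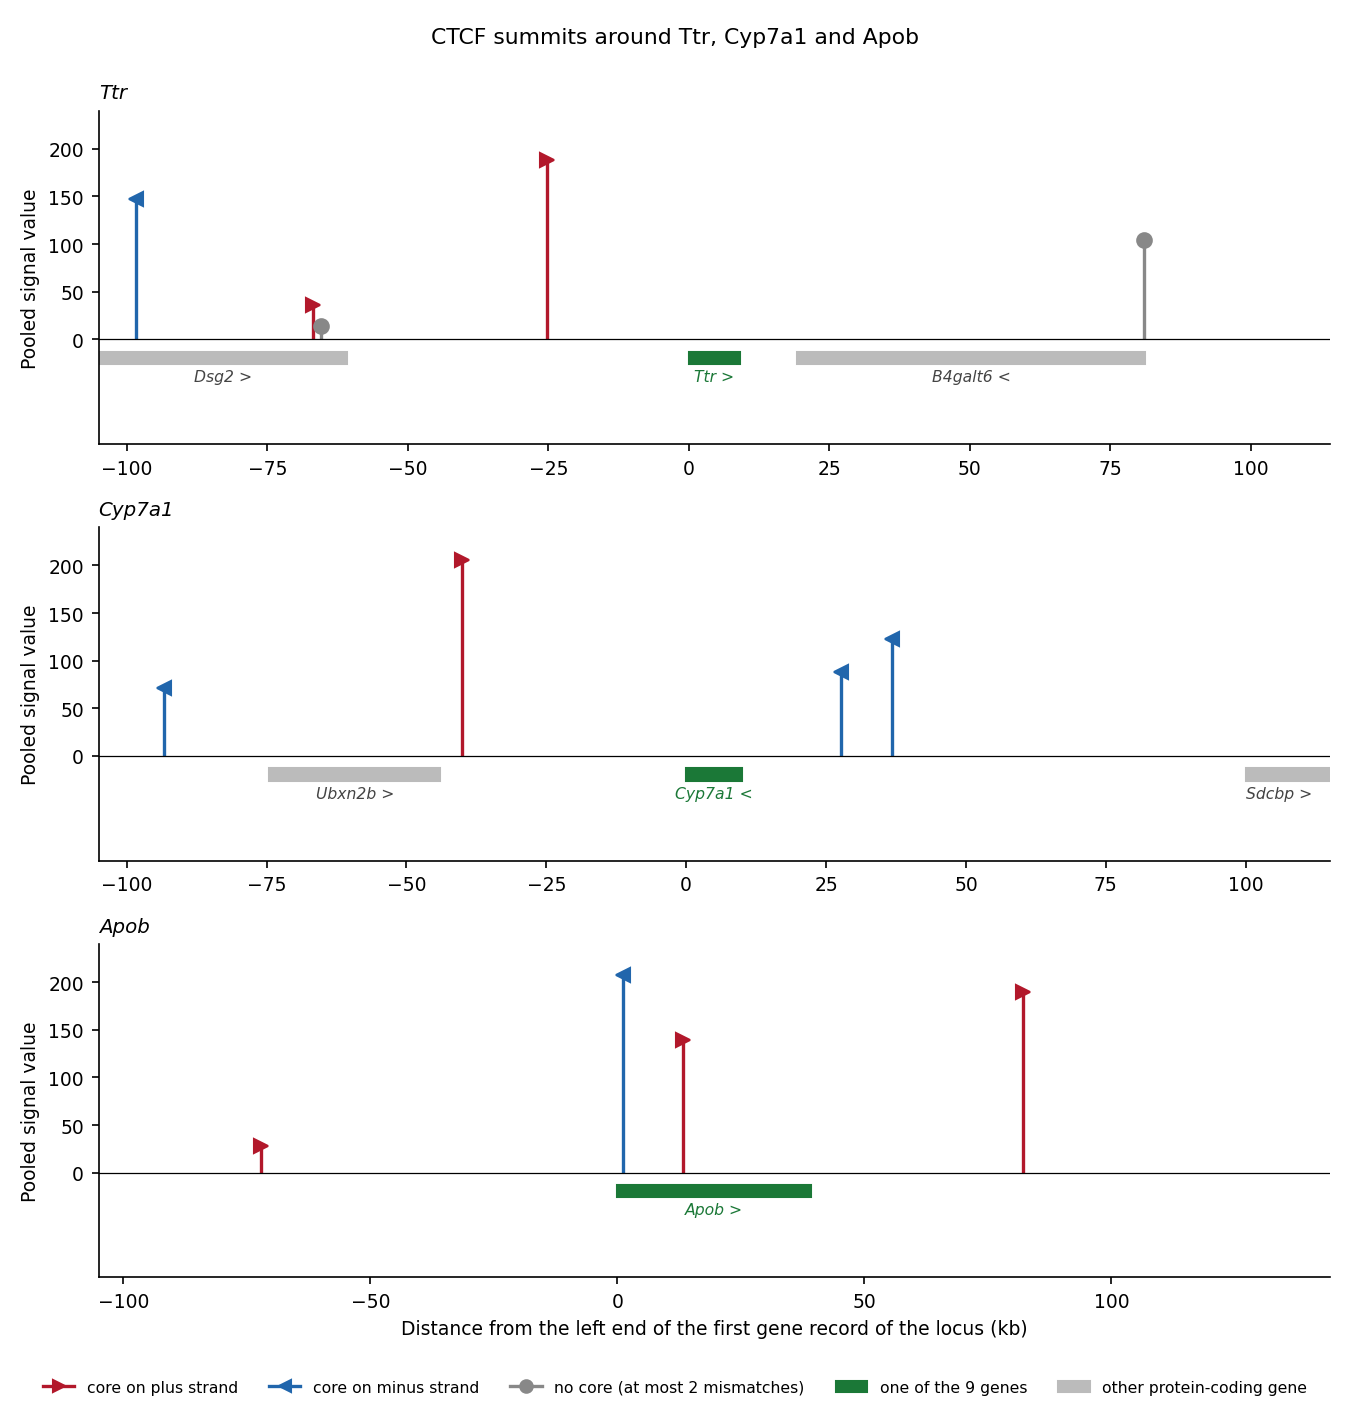
Pooled signal value of each CTCF summit against its distance in kb from the left end of the record of Ttr, Cyp7a1 or Apob, with core strand and gene records drawn as in the plot of the clusters. The Apob record carries 2 summits, at 208 and 139, while the Ttr and Cyp7a1 records carry none.

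Intervals free of summits around the 5′ ends were set against those of all protein-coding genes, whose median was 54.69 kb and whose 90th percentile was 537.1 kb. The 9 genes had a median of 67.72 kb. Ttr had 106.22 kb, longer than 69.1% of genes, and Alb and Afp shared 95.53 kb, longer than 66.6%. Next came Apob with 73.2 kb (58.4%), Cyp7a1 with 67.72 kb (56.0%), Apoa1 with 38.18 kb (37.6%), Apoa5 with 26.07 kb (26.7%), and Apoc3 and Apoa4 with 16.94 kb (17.1%). The lipid genes of the chromosome 9 cluster therefore had the 4 shortest intervals, and the genes outside it lay above the median of all genes. The median distance from 5′ end to the nearest summit was 6.29 kb for the 9 genes and 9.85 kb for all genes.

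**Figure D3:**
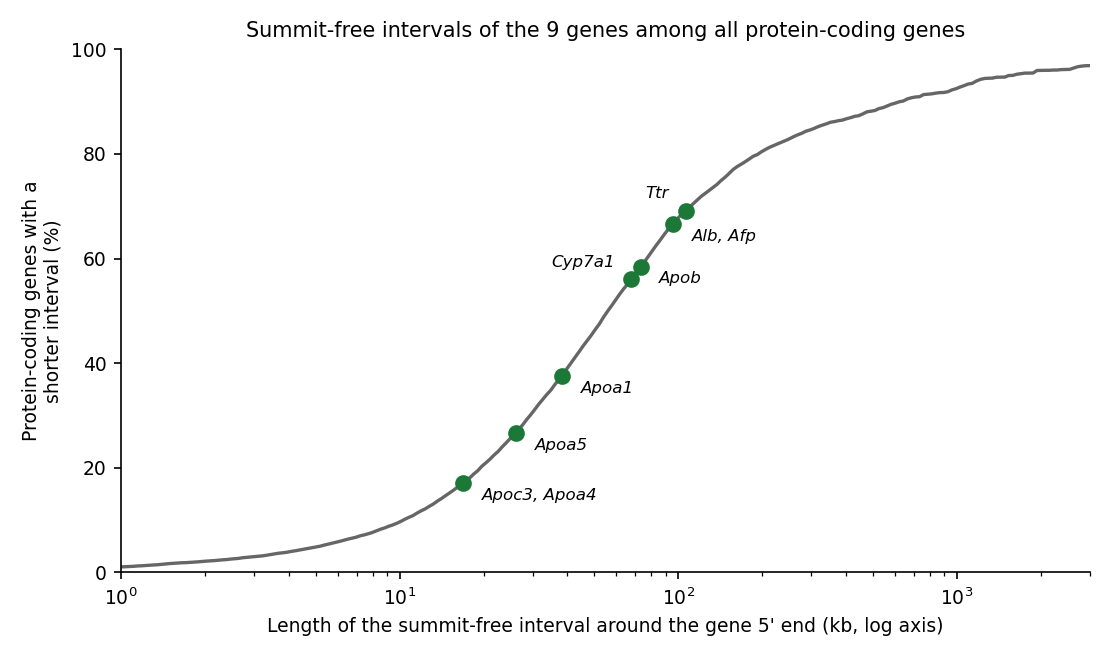
Share of protein-coding genes with a shorter summit-free interval (vertical axis, %) against the length of the interval around the 5′ end (horizontal log axis, kb), with the 9 genes as points on the curve. The points run from 16.94 kb for Apoc3 and Apoa4 to 106.22 kb for Ttr, and none comes near the 90th percentile of 537.1 kb.

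The orientation of the cores at the ends of these intervals was looked at after the values were seen. The interval had a core at both ends for 5 of the 9 genes, beside 11808 of all 21938 protein-coding genes. Alb and Afp (1 shared interval), Cyp7a1 and Apob had cores pointing towards each other, a convergent pair, and Apoa1 had cores pointing away from each other. Over the 11808 protein-coding genes with a core at both ends, 29.4% had a convergent pair. Among intervals of 50 to 200 kb, the range of the 3 convergent intervals here, 34.4% did. Both shares count each gene, also where genes share an interval. The list of replicate 2 alone was cut to its 44533 strongest relaxed peaks. There, a weak summit with a minus strand core took the place of the upstream flank of Alb, and that pair was then not convergent. A weak summit without a core took the place of the left flank of Apoa1. With 4 separate intervals this is a description, and whether the cores at their ends form loops was not measured.

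Peaks near the 9 genes had a higher median signal than the list as a whole, a difference that was not tested. Their pooled signals ran from 14.4 to 220 with a median of 101 (quartiles 47.2 and 186), while the list had a median of 60.8 (quartiles 27.5 and 128). Of the 32, 23 were above the list median and 9 were in its top decile. The strong ones were spread over the loci, with 3 at the apolipoprotein cluster, 2 each at Alb and Afp and at Apob, and 1 each at Ttr and Cyp7a1. A core was found at 25 of 32 summits, 78.1% (exact binomial 95% interval 60.0 to 90.7%, counting error only), and at 73.5% of the whole list. Of these cores, 2 had no mismatch, 12 had 1 and 11 had 2, and 3 lay mostly in masked repeats (12.0%, against 18.1% of the cores in the list). The median signal was 123 with a core and 67.2 without one, against 78.7 and 31.3 in the list.

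The libraries differed in level. Of the 32 summits, 31 were matched in both relaxed lists (96.9%, against 97.1% of the whole list) and 30 were also in the conservative list (93.75%, against 89.4%). Replicate 2 was lower at 26 of 31 (83.9%), as at 74.3% of the list, and the median log2 ratio of replicate 2 to replicate 1 was -0.21 near the 9 genes and -0.22 over the list. The ratio ran from -0.93 at a Sik3 intron summit (21.4 and 11.2) to 1.23 at the weak summit upstream of Alb. The signals were not scaled between libraries, so the SDs above include this difference in level.

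**Figure D4:**
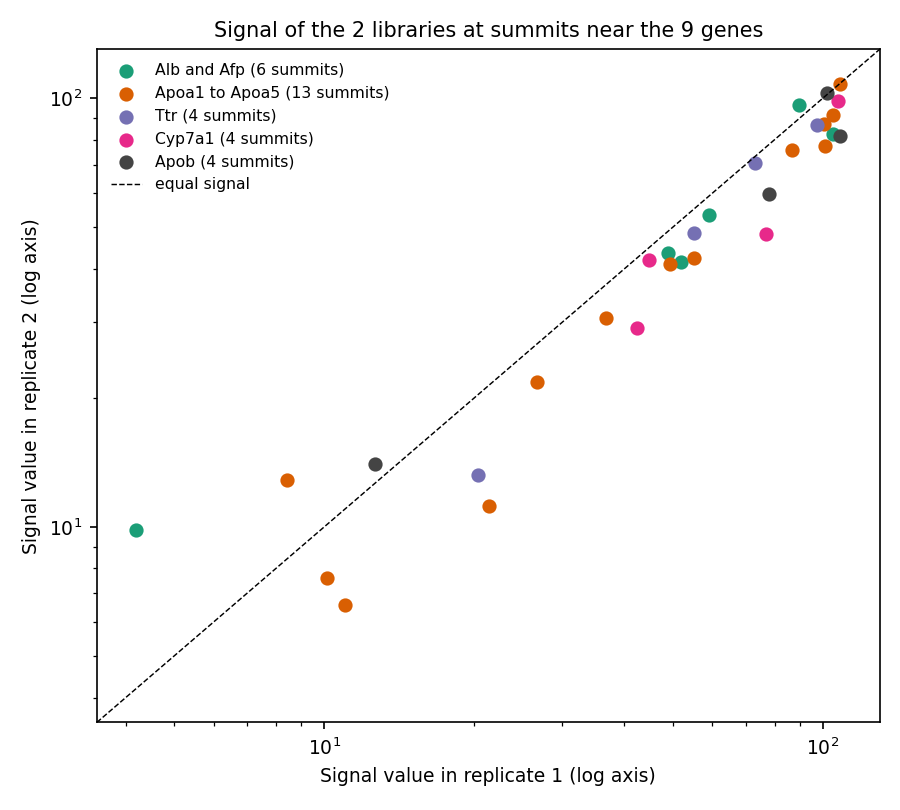
Signal value in replicate 2 against replicate 1 (both on log axes) for the 31 summits near the 9 genes that were matched in both libraries, coloured by locus, with the line of equal signal dashed. Points below the line, 26 of the 31, are lower in replicate 2, and the point farthest from it is the weak summit upstream of Alb.

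Peaks that the list left out were also looked up in the gene records. In the pooled relaxed list, which holds 300000 peaks background included, the records without a listed summit held no further peak in Alb, Apoc3 and Apoa5, 1 in Cyp7a1 (5.33), 2 in Apoa4 (at most 5.91) and 4 in Ttr (at most 9.54). The records with a listed summit held 2 more in Afp (at most 9.57), 1 in Apoa1 (7.48) and 2 in Apob (at most 5.91). None of these signals reached 10, while the listed summits near the 9 genes began at 14.4. The whole list began at 5.50, so the highest of these unlisted peaks exceeded its weakest summits. Within 1000 bp of the 5′ ends, pooled relaxed peaks lay at Apoa1 (7.48) and Apob (7.24) and at no other of the 9 genes. A core with at most 2 mismatches was present in the RefSeq promoter window of 300 bases for 2 of the 6 genes matched there, Apoa1 and Apob, and in 14.4% of 32851 promoter windows. The 6 genes had 7 windows between them, so their count is by gene while the share over all is by window.

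The 100 kb window has summits close to both sides of its edge. Just inside it lay the Dsg2 summit 98.33 kb from Ttr (148) and the Ankrd17 summit 96.19 kb from Alb (94.2). Just outside it lay summits 108.76 kb left and 114.59 kb right of the apolipoprotein cluster, with pooled signals of 13.2 and 10.1, and one 129.94 kb from Cyp7a1 (37.8). Only the nearest summit beyond the window on each side of a locus was looked up. The strongest of those lay 151.97 kb from Cyp7a1 (210), 144.0 kb from Afp (165) and 141.2 kb from Ttr (137).

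Related genes were described from 4 lists. Of 26 other lipoprotein genes, 24 had a summit within 10 kb of the gene record (92.3%, beside 69.7% of all protein-coding genes), with a median of 12 summits within 100 kb and a median interval of 28.64 kb. The strongest such summits lay at Lcat, the cholesterol esterifying enzyme of plasma (252, 131 and 120 in replicates 1 and 2), and at Scarb1, the receptor for high-density lipoprotein (239, 134 and 105). Gene density around these genes was not taken into account, and the difference from the 9 genes was not tested. In this list and in the plasma protein list, some neighbouring genes shared their strongest summit within 10 kb. A count of genes is therefore not a count of separate loci.

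Of 29 matched plasma protein genes, 16 had a summit within 10 kb (55.2%, beside the same 69.7%), with a median of 7 summits within 100 kb and a median interval of 51.5 kb. Ambp (236) and Plg, which encodes plasminogen (186), had the strongest summits within 10 kb, and Serpina1a (267.45 kb) and Serpinc1, which encodes antithrombin (236.6 kb), the longest intervals. Of 21 bile acid genes, 16 had a summit within 10 kb (76.2%, against 69.7% of all genes), with a median of 6 within 100 kb and a median interval of 63.26 kb. Hsd3b7 (258) and Cyp39a1 (235), both enzymes of bile acid synthesis, had the strongest, and Cyp7b1 (463.32 kb) and Akr1c6 (329.42 kb) the longest intervals. Of 13 genes of liver transcription factors, 12 had a summit within 10 kb (92.3%, against 69.7%), with a median of 9 within 100 kb and a median interval of 39.48 kb. Foxa3 (336, 186 and 153 in replicates 1 and 2) and Nr1h3 (221) had the strongest, and Onecut1 (337.54 kb) and Foxa2 (152.75 kb) the longest intervals. Within 10 kb of the 5′ end, 7 of 21 bile acid genes had a summit, below the 50.3% of all protein-coding genes. The counts there were 18 of 26 lipoprotein, 11 of 29 plasma protein and 11 of 13 liver factor genes. Records held a summit in 13 lipoprotein, 7 plasma protein, 9 bile acid and 7 liver factor genes, beside 46.0% of all genes.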

How the data were processed

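CTCF ChIP-seq libraries of heart from B6NCrl mice at postnatal day 0 were deposited as peak lists on mm10, per the labels. The signal value and summit offset of each peak were computed by the authors, who called 300000 relaxed peaks in each library and in both together, against a control alignment not used here, and derived an optimal and a conservative list by irreproducible discovery rate (IDR), per the text files deposited beside them. For the aligner and peak caller, names and versions were not given in the sources used here. Read depth is not in the lists, so its effect on precision is unknown.

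From these, summits of the optimal list (44518 of 44533 on chromosomes 1 to 19, X and Y) were assigned to gene records of GENCODE M21. Positions are 1-based. Library signals are those of the nearest relaxed summit within 100 bp, unscaled. Masked cores are those with 7 or more of 14 bases in lower case in the GRCm38 genome of RefSeq. A summit-free interval runs between the nearest summits on either side of a 5′ end. Exact binomial intervals at 95% reflect counting error alone. Distances, intervals and the core search were tested on simulated data. Python 3.11.15, pandas 2.3.3, numpy 2.4.6, scipy 1.17.1 and matplotlib 3.10.9 were used.

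The genes, lists and tests were chosen with earlier results of these data known. Genes named are the 9 genes, the genes holding or nearest to summits described singly (inside or within 10 kb of a record, nearest on each side of a locus, or strongest there), and, of the lipoprotein, plasma protein, bile acid and liver factor lists, the 2 with the strongest summit within 10 kb and the 2 with the longest interval, which for the lipoprotein list are not reported here. Afm and the genes at other summits were named after their values were seen. Of the plasma protein list, Tf matched no protein-coding record. Alternatives were the conservative list, each library alone, other windows, other distances, and other limits for the core. Each library alone means its 44533 strongest relaxed peaks, a number set to the size of the optimal list.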

Additional observations from a re-analysis of the deposited data

How the results depend on the processing

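Of 33 alternatives, 22 kept the value within a margin, set at 1.5 times for counts and at the SD between the libraries' own values otherwise, and 11 moved it. None of the alternatives applies a test. The single-library values set that SD and were also alternatives. For both intervals replicate 1 gave the main value, so any other value in replicate 2 had to count as moved. Single-library medians lay on a lower scale than the pooled signal, so the tally does not measure robustness. Summits near the 9 genes numbered 32, and 30 to 47 under the alternatives other than a window of 50 kb, which gave 19. With 1 library left out the count was 30 to 31. Genes with a summit within 10 kb numbered 6, and 5 to 9 under the alternatives: 5 without replicate 2, where Apoa5 lost the weak Zpr1 summit, and 9 with a window of 50 kb. The share of all protein-coding genes at 50 kb was not computed, so that count of 9 has no background beside it. The longest interval touching Alb or Afp was 88.21 to 95.53 kb with 1 library left out, the lower value being that between Afp and its downstream flank, and the longest at the apolipoprotein cluster 32.56 to 38.18 kb. Both lower values came without replicate 1, because replicate 2 alone adds a weak summit 27.23 kb from Alb (8.11, against 4.22 in replicate 1) and another 31.11 kb from Apoa1 (7.79, against 4.47). The interval that holds Alb was then 67.26 kb, and that of Apoa5 was 35.72 kb without replicate 2 (intervals per gene in each library were compared after seeing the data). The median signal of 101 became 109 in the conservative list and also for peaks in both lists, 139 within 50 kb and 94.2 within 200 kb. On the scale of a single library it was 48.2 in replicate 2 and 57.2 in replicate 1. The medians of those libraries' lists, each cut to its 44533 strongest relaxed peaks, were 27.6 and 32.8. The share with a core was 43.75% with at most 1 mismatch (42.4% of the list) and 87.5% with at most 3 (91.3%), so the share lay above that of the list at the first limit and below it at the second. Weak peaks depend on the list. Without replicate 1, the listed summits 38.96 kb from Apoa1, 55.97 kb from Apoa5 and 65.36 kb from Ttr dropped out. Without replicate 2, those 77.57 kb from Alb and 1.13 kb from Apoa5 did. Dropping out means that the strongest peaks kept for the remaining library held no summit within 100 bp. Except for the one near Ttr, each of these summits had a weaker relaxed peak in that library.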
